A study of Bos taurus and Bos grunniens x Bos taurus and Bos grunniens with 18 samples.

Results

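Circular RNAs that met a read threshold in 1 parent species and in no other group were drawn from testis libraries. The testes came from 4-year-old cattle (Bos taurus), yaks (Bos grunniens) and cattle-yaks, their hybrid. There were 3 animals of each kind from the same cooperative, all castrated for the study. No breed and no treatment is named for any group, nor is the direction of the cross that gave the hybrids. RNA depleted of ribosomal RNA was sequenced, and the deposited table held reads for 5730 circular RNAs (circRNAs) in 9 libraries, with totals of 44469 to 65174 reads per library. A circRNA was named private to a parent when it had at least 2 reads in all 3 libraries of that parent and fell short of this in both other groups. This gave 1422 circRNAs, 804 of them cattle-private and 618 yak-private. The members were thus chosen by the read counts of all 9 libraries, so their levels are given as a description and were not tested.

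CircRNAs are closed loops made when the spliceosome joins the end of an exon back to the start of the same or an earlier exon. They have no free ends, resist exonucleases and are abundant in brain and testis, where many arise from genes of the germ line. RNA-binding proteins such as QKI, which pairs flanking introns, favour back-splicing, while the editing enzyme ADAR and the helicase DHX9 oppose it by loosening paired introns. The deposited table names each circRNA by a number alone, with no host gene, coordinate, strand or sequence, so the numbers are used below as they stand and no gene is assigned to them.

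Private circRNAs were 24.1% of the 3333 circRNAs called in cattle and 19.3% of the 3201 called in yak, where called means at least 2 reads in all 3 libraries of a group. A cattle genome build is listed for every library, and its part in differences between the parents, here and below, was not tested. In both parents the larger class was shared by all 3 groups, with 1497 circRNAs. A further 532 were called in both parents and not in cattle-yak, 500 in cattle and cattle-yak only, and 554 in yak and cattle-yak only. With all libraries scaled to the lowest table total, 616 circRNAs were cattle-private and 577 yak-private, of which 490 and 403 were members on the unscaled reads, so the gap between the set sizes moved with the scaling.

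Most private circRNAs were scarce. The median of the lowest own count, the smallest of the 3 read counts in the group to which a circRNA is private, was 3 in both sets. It was exactly 2, the threshold itself, in 314 cattle-private circRNAs (39.1%) and 291 yak-private circRNAs (47.1%). A count of 2 reads has an exact 95% Poisson interval of 0.242 to 7.22 reads, which covers counting error only. On the deposited TPM scale, which here holds reads relative to the library's table total with no length term, the median level was 87.5 for cattle-private circRNAs in cattle and 89.3 for yak-private ones in yak. The median was 217 for circRNAs called in all 3 groups and 81.2 for the 1225 called in cattle-yak alone. Of the latter, 40.7% had a lowest own count of exactly 2, so scarcity was not particular to the parents' private sets. Only 53 cattle-private and 38 yak-private circRNAs had at least 10 reads in every own library, and the highest own library exceeded the lowest by a median of 2-fold in both sets. The widest spread within cattle was that of novel_circ_0021102, with 3, 12 and 33 reads. Reads were concentrated: 157 of the 804 cattle-private circRNAs held 50% of the set's 16841 reads in cattle, and 128 of the 618 yak-private ones held 50% of 11626 reads in yak.

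The most abundant cattle-private circRNA, novel_circ_0026559, had 296, 184 and 426 reads in the cattle libraries and none in the cattle-yak libraries. In yak replicate 1 it had 119 reads and in the other yak libraries it was listed at 0. Every cattle library was above every other library. Next came novel_circ_0000846, with 94, 115 and 128 reads in cattle and 0 in all 3 yak libraries. In the hybrids it had 336, 284 and 0 reads, so both cattle-yak libraries that carried it were above every cattle library, and cattle-yak replicate 3 alone kept it from being called there. Both circRNAs thus had reads outside cattle.

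Other abundant members had reads in cattle alone. Reads of novel_circ_0007013 numbered 51, 68 and 124 in cattle, a mean of 81.0 ± 38.2 (SD, n = 3), with 0 in the 6 other libraries. For novel_circ_0029365 the cattle counts were 49, 78 and 98, a mean of 75.0 ± 24.6, again with 0 elsewhere. Lower in reads, novel_circ_0028147 had 33, 35 and 24 reads in cattle and 0 elsewhere. These were the members listed at 0 in all 6 other libraries among the 12 cattle-private circRNAs with the highest lowest own count, and 7 of the 12 were at 0 in all yak libraries.

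Among yak-private circRNAs the most abundant was again uneven outside its own species. Counts of novel_circ_0000135 were 170, 441 and 268 in yak, 0, 268 and 0 in cattle, and 0, 0 and 1569 in cattle-yak. The single cattle library with reads equalled the third yak library, and cattle-yak replicate 3 was above every other library. That 1 circRNA made up 62.7% of the 2502 yak-private reads in cattle-yak replicate 3. With it, yak-private circRNAs held 3.84% of the table reads of that library, and without it 1.43%.

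Of the 12 yak-private circRNAs with the highest lowest own count, only novel_circ_0017989 was at 0 in all 6 other libraries, with 67, 35 and 46 reads in yak (mean 49.3 ± 16.3, n = 3). Cattle-yak replicate 1 held 4 reads of novel_circ_0011052, which had 43, 27 and 25 in yak and 0 in every cattle library. In contrast, novel_circ_0030050 had 30, 19 and 34 reads in yak and 105, 0 and 79 in cattle. It was private to yak by the rule while both cattle libraries that carried it were above every yak library. Likewise novel_circ_0016047 had 23, 33 and 22 reads in yak, and reached 86 and 98 in cattle-yak replicates 1 and 2 and 57 in cattle replicate 3.

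**Figure D1:**
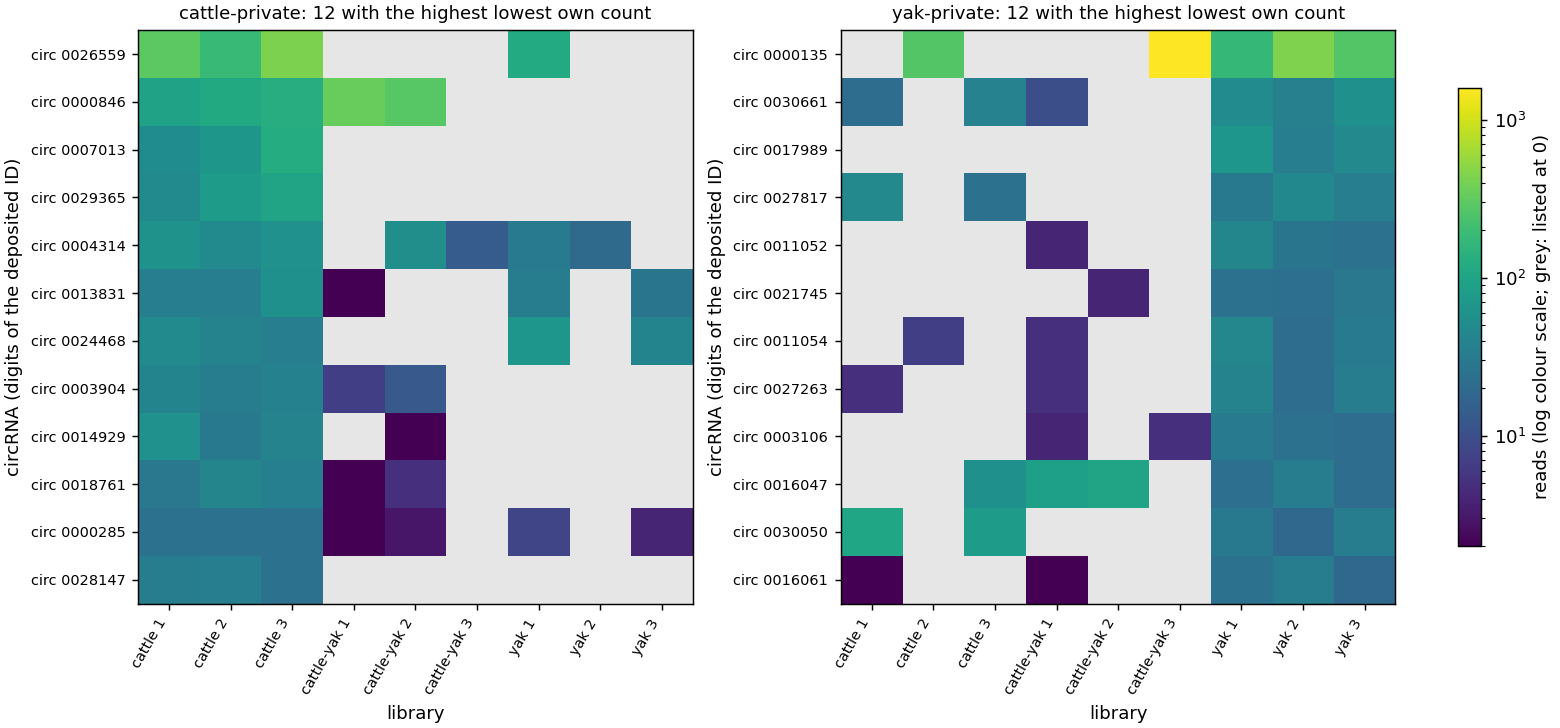
Reads of the 12 cattle-private (left) and 12 yak-private (right) circRNAs with the highest lowest own count, one row per circRNA and one column per library, on a logarithmic colour scale with grey for a listed 0. Coloured cells outside the own group show that 3 of the 12 cattle-private and 1 of the 12 yak-private circRNAs were at 0 in all 6 other libraries.

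Reads outside the own group were frequent over the whole sets as well. In all, 163 of 804 cattle-private circRNAs (20.3%) and 91 of 618 yak-private circRNAs (14.7%) were listed at 0 in all 6 libraries of the other groups. Reads in at least 1 yak library were listed for 491 cattle-private circRNAs (61.1%), and reads in at least 1 cattle library for 442 yak-private circRNAs (71.5%). In the hybrids, 442 cattle-private (55.0%) and 355 yak-private (57.4%) circRNAs had reads in at least 1 library. Reads in both the other parent and the hybrid were listed for 292 cattle-private and 270 yak-private circRNAs. The table holds no value of 1, so a listed 0 may cover a single read.

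Many members sat just inside the rule. Of the cattle-private circRNAs, 404 (50.2%) were 1 library short of being called in yak, in cattle-yak or in both, and of the yak-private circRNAs 372 (60.2%) were 1 library short of cattle, cattle-yak or both. Outside the rule lay the 500 and 554 circRNAs that cattle-yak shared with cattle or with yak, and the 532 shared by the parents only. By mean TPM, 58 cattle-private circRNAs (7.21%) and 53 yak-private circRNAs (8.58%) were higher in another group than in the group they were private to. Conversely, 346 cattle-private (43.0%) and 252 yak-private (40.8%) circRNAs had every own library above all 6 others. At least 10 reads in 1 library and 0 in another library of the same group were seen within yak for 25 cattle-private circRNAs and within cattle for 34 yak-private ones.

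The share of members at 0 in the other parent did not rise steadily with abundance in either set. At a lowest own count of 2, 40.1% of 314 cattle-private circRNAs were at 0 in all 3 yak libraries, and the share was 33.3% of 138 at 5 to 9 and 50.9% of 53 at 10 or more. For yak-private circRNAs, 34.0% of 291 were at 0 in all 3 cattle libraries at a lowest own count of 2, 21.3% of 80 at 5 to 9 and 23.7% of 38 at 10 or more.

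**Figure D2:**
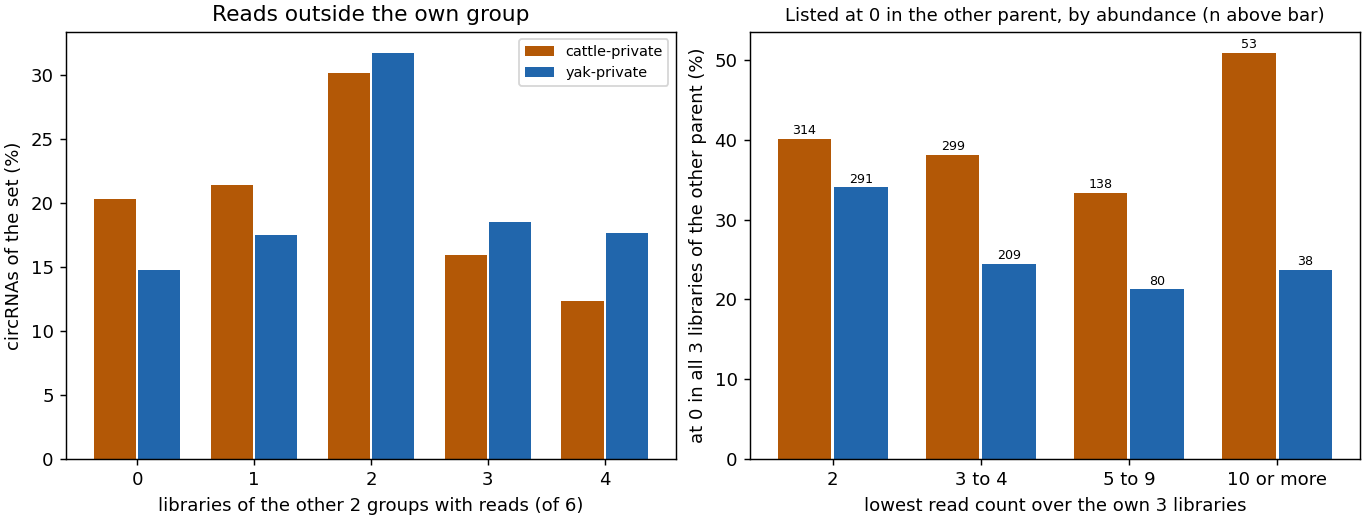
Left, percent of each private set by the number of libraries of the other groups, out of 6, in which a circRNA had reads. Right, percent of each set at 0 in all 3 libraries of the other parent by the lowest own count, with the number of circRNAs above each bar. The most frequent number of other libraries with reads was 2, at 30.1% of cattle-private and 31.7% of yak-private circRNAs.

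By library, cattle-private circRNAs held 10.6 ± 0.61% of table reads in cattle (SD, n = 3), 2.25 ± 0.70% in yak and 2.08 ± 0.38% in cattle-yak. Yak-private circRNAs held 8.01 ± 0.25% in yak, 2.28 ± 0.10% in cattle and 2.32 ± 1.32% in cattle-yak, where the spread came with the 1 circRNA named above. Yak replicate 1 had reads of 318 cattle-private circRNAs, yak replicate 2 of 196 and yak replicate 3 of 247. Total table reads of the yak libraries followed the same order, at 52471, 44469 and 48286, and the part of depth in this difference was not tested. Reads of yak-private circRNAs were spread more evenly over the cattle libraries, at 237, 222 and 245 circRNAs.

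**Figure D3:**
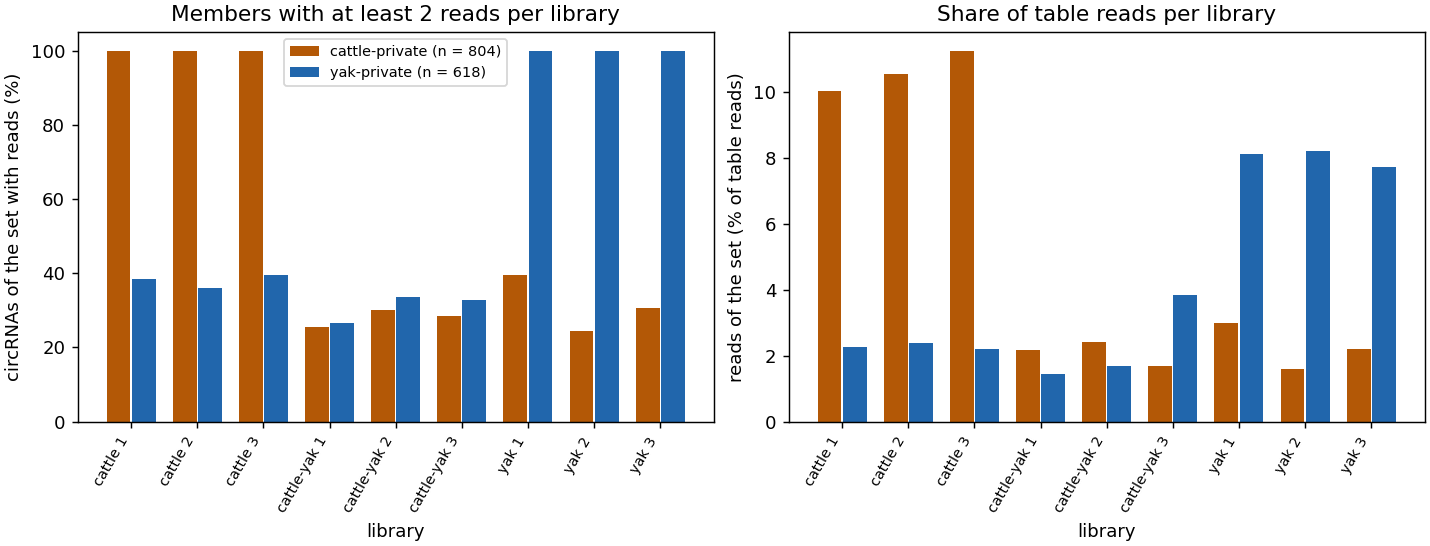
Percent of the 804 cattle-private and 618 yak-private circRNAs with at least 2 reads (left) and percent of the table reads that each set held (right), for each of the 9 libraries. Own libraries stand at 100% by the rule, while the others lie between 24.4 and 39.6%.

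Whether a circRNA missing from some libraries of a species is also missing from a further animal was examined with libraries that did not enter the choice. CircRNAs called in cattle and at 0 in 2 yak libraries were looked up in the third yak library, with each yak library held out in turn. Reads were found for 24.8% of 549 circRNAs in yak replicate 1, 19.2% of 511 in replicate 2 and 20.0% of 516 in replicate 3, a mean of 21.3 ± 3.03% (SD, n = 3). For circRNAs called in yak and at 0 in 2 cattle libraries, the held-out cattle library had reads for 28.1% of 335, 28.5% of 337 and 29.3% of 341, a mean of 28.6 ± 0.64%. All 3 values from held-out cattle libraries were above all 3 from held-out yak libraries, which is given as a description. An exact permutation test cannot decide on this difference: full separation of 3 values from 3 fixes its two-sided p at 0.1, the smallest possible. Where both other yak libraries had reads, the held-out one had them for 91.7 ± 1.95% of cattle-called circRNAs, and where 1 of the 2 had reads, for 62.0 ± 5.05%. The 3 sets of circRNAs overlap, so these values are not independent.

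The same circRNAs were also looked up in the hybrids, whose reads took no part in the choice. The choice asked for 0 in the group that the held-out library belongs to and asked nothing of the hybrids, so the values stand side by side only. Exact permutation tests of the gaps cannot decide, since the choice itself lowers the held-out values. Their two-sided p of 0.1 for each parent is also the smallest that 3 values against 3 allow. On the same cattle-called circRNAs at 0 in 2 yak libraries, reads were found for 42.3, 45.6 and 45.7% in the 3 cattle-yak libraries, a mean of 44.5 ± 1.95%, beside 21.3 ± 3.03% in the held-out yak library. On the yak-called circRNAs at 0 in 2 cattle libraries, the hybrids had reads for 46.4, 48.8 and 51.3%, a mean of 48.8 ± 2.47%, beside 28.6 ± 0.64% in the held-out cattle library. The gaps were 23.2 and 20.2 percentage points and moved with the number of libraries that made the choice. They were 14.3, 16.3 and 14.2 points without yak replicate 1, 2 or 3 and 9.56, 11.3 and 10.2 points without cattle replicate 1, 2 or 3, where 1 library of the other parent was left to choose the circRNAs. Table totals were 50533 to 65174 reads in cattle-yak and 44469 to 52471 in yak. With all libraries scaled to the lowest total the gaps were 18.3 and 18.8 points. The scaled choice took fewer than 2 scaled reads in place of 0, so it differs in more than depth.

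**Figure D4:**
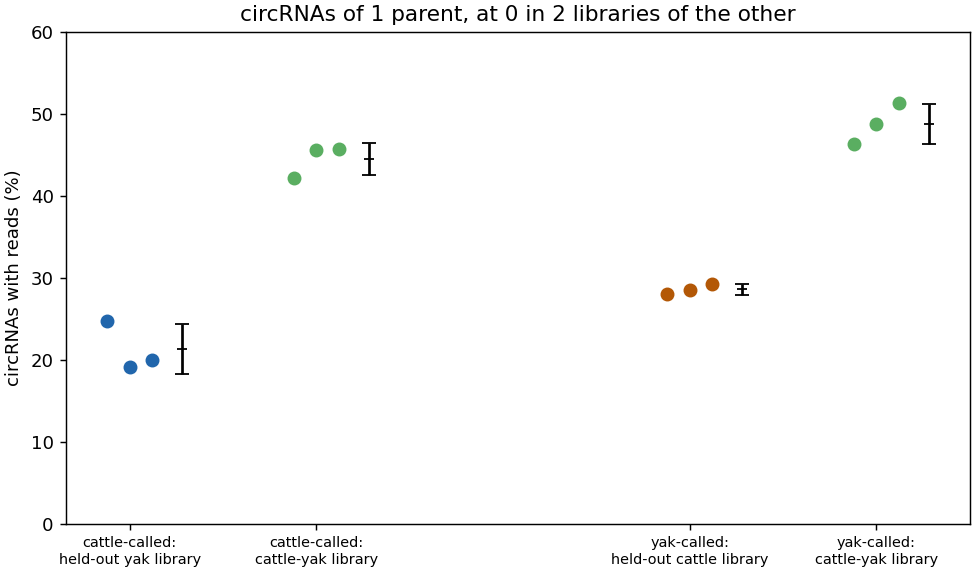
Percent of circRNAs with reads in the held-out library of the other parent and in the 3 cattle-yak libraries (each averaged over the 3 choices), for circRNAs called in cattle (left) or yak (right) and at 0 in the 2 remaining libraries of the other parent. Points are libraries and bars are mean ± SD (n = 3), with hybrid points at 42.3 to 51.3% and held-out points, from the group chosen for 0, at 19.2 to 29.3%.

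Choosing on the parents alone, 1304 circRNAs were called in cattle and not in yak and 1172 in yak and not in cattle. The 3 cattle-yak libraries had reads for 54.0, 56.9 and 55.9% of the former and for 61.3, 64.9 and 64.5% of the latter. The yak share was higher in 3 of 3 hybrid libraries, by 8.0 ± 0.62 percentage points (exact paired permutation test, two-sided p = 0.25, the smallest that 3 pairs allow). The test cannot decide here, because 3 differences of the same sign give this value whatever their size. For circRNAs at 0 in all 3 libraries of the other parent the shares were 42.2 ± 2.33% of 413 and 45.2 ± 2.20% of 241, and the difference was 3.02 ± 1.09 points. Calls in all 3 cattle-yak libraries were made for 38.3% of the 1304, 47.3% of the 1172 and 73.8% of the 2029 circRNAs called in both parents.

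Markers of testis cell types were read from mRNA of the same libraries, a readout that did not choose the circRNAs. In bulk samples fewer cells of a type and less RNA per cell cannot be told apart. FPKM, a length-scaled abundance, was tested for 14091 genes with limma, and the adjusted p was under 0.05 for 84.4% of them in cattle-yak against cattle, with 54.4% higher and 30.0% lower. Against yak it was so for 86.0%, with 55.3% higher and 30.7% lower. All 18 tested genes of spermatids, such as PRM1, a protamine that packs sperm DNA, fell in cattle-yak against each parent. Their summed FPKM was 18793 to 30897 in cattle, 23896 to 26851 in yak and 30.3 to 135 in cattle-yak. All 12 Sertoli cell genes and all 10 Leydig cell genes tested rose against each parent. With median-ratio scaling the spermatid and Sertoli cell counts were the same and 9 of 10 Leydig cell genes rose against cattle. The part of these differences in the reads of private circRNAs in the hybrids was not tested.

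Between the parents, 19.1% of all genes were called in yak against cattle, 8.36% higher and 10.7% lower. Of the 18 spermatid genes limma called 0, with 0 at an unadjusted p under 0.05, and of the 15 acrosome genes also 0, with 0 unadjusted. Of the 10 Leydig cell genes it called 0, with 2 unadjusted. SYCE3, of the synaptonemal complex, was the 1 of 22 meiotic prophase genes called, at 77.5 ± 18.2 FPKM in cattle and 162 ± 14.8 in yak. TEKT5, a tektin of the sperm tail, was the 1 of 32 flagellum genes called, and MYBL1, a meiotic transcription factor, the 1 of 10 late spermatocyte genes, both higher in yak. Of 12 spermatogonial genes 2 were lower in yak. DAZL, a germ cell RNA-binding protein, was at 89.1 ± 3.96 FPKM in cattle and 64.1 ± 2.39 in yak, and STRA8, which acts at meiotic entry, at 16.7 ± 3.62 and 7.85 ± 1.15.

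Somatic and blood cell lists held a few calls each, beside 8.36% of all genes higher and 10.7% lower in yak. FSHR, the receptor of follicle-stimulating hormone, was the 1 of 12 Sertoli cell genes called and was lower in yak. MYH11, a smooth muscle myosin, was the 1 of 5 peritubular genes called, also lower. The macrophage receptors CD163 and CSF1R were lower, 2 of 8 genes. VWF, a clotting protein of endothelium, and TEK, the angiopoietin receptor, were higher, 2 of 7. VWF was at 2.97 ± 1.26 FPKM in cattle and 10.8 ± 1.64 in yak. Of 6 lymphocyte genes the cytokine receptor IL7R was higher while CCL5, a chemokine, and PTPRC, a pan-leukocyte phosphatase, were lower. S100A12, a granulocyte protein, was the 1 of 2 blood genes called and was higher. With quantile normalisation the calls of FSHR, CD163 and PTPRC were lost, and ODF2 of the flagellum list was called lower. ETV5, on the Sertoli cell and spermatogonial lists, was called higher with median-ratio scaling and with quantile normalisation. List members named because they were called were chosen after their values were seen. The part of these differences in the private sets was not tested.

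Genes that make, modify, export or degrade circRNAs were tested between the parents. Of 32, 1 was higher and 1 lower in yak than in cattle, beside 8.36% higher and 10.7% lower over all genes, and the median log2 change of FPKM + 1 was −0.04, beside −0.06 over all genes. KHSRP (ENSBTAG00000021018), a KH-domain splicing regulator, had 12.3, 15.4 and 15.3 FPKM in cattle and 24.9, 22.7 and 22.9 in yak. The libraries did not overlap, and the log2 change was 0.68 ± 0.11 (SE; limma, adjusted p = 0.00249). METTL14, a subunit of the enzyme that writes N6-methyladenosine, had 15.0, 15.2 and 14.4 FPKM in cattle and 12.1, 11.4 and 12.3 in yak. These libraries did not overlap either, and the log2 change was −0.30 ± 0.09 (limma, adjusted p = 0.0472). Leaving out any of the 9 libraries ended the METTL14 call, with adjusted p-values of 0.0536 to 0.140 by limma. With median-ratio scaling its adjusted p was 0.131. Under median-ratio scaling and under quantile normalisation, 2 of the 32 genes were called higher in yak, KHSRP and YTHDF2, and 0 lower.

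The 3 most abundant of the 32 genes did not pass the test between the parents. HNRNPM, a splicing repressor, had 115 ± 12.2 FPKM in cattle and 120 ± 12.5 in yak, ILF2, a partner of double-stranded RNA binding proteins, 99.5 ± 14.3 and 111 ± 9.72, and DDX39A, a helicase of RNA export, 95.2 ± 1.97 and 88.5 ± 4.61. QKI, named above for its part in intron pairing, was at 75.8 ± 6.92 FPKM in cattle and 70.4 ± 4.30 in yak, a log2 change of −0.10 ± 0.10 (limma, adjusted p = 0.507). DHX9 was at 50.6 ± 2.69 and 47.0 ± 2.42 FPKM, and ADAR at 6.82 ± 0.80 and 5.40 ± 1.49, and neither was called. In cattle-yak against cattle, 21 of the 32 were higher and 3 lower, beside 54.4% higher and 30.0% lower over all genes. Against yak, 20 were higher and 4 lower, beside 55.3% and 30.7%. With median-ratio scaling, which moves the median over all genes from 0.50 to −0.02 against cattle and from 0.54 to −0.05 against yak, 13 were higher and 11 lower in each comparison.

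**Figure D5:**
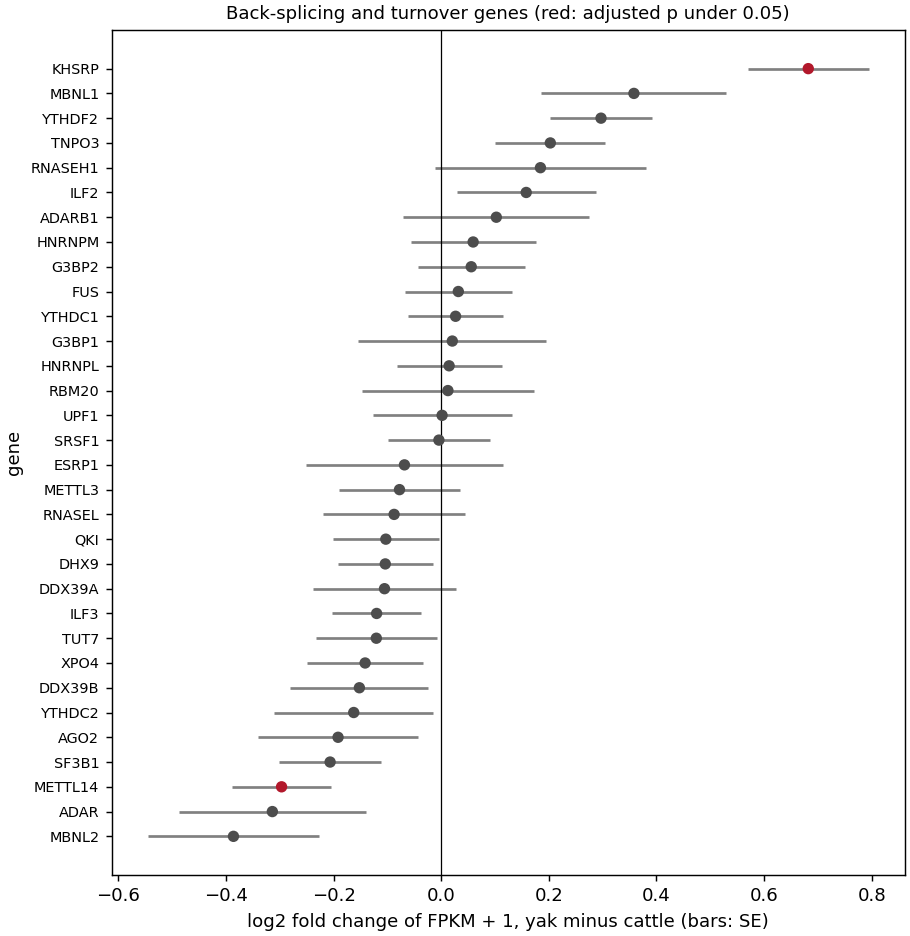
Log2 fold change of FPKM + 1, yak minus cattle, with its SE, for the 32 genes of the back-splicing and turnover list, one gene per line. KHSRP, at 0.68, and METTL14, at −0.30, are the genes with an adjusted p under 0.05.

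Genes known to host circRNAs in human or mouse were read for their mRNA. Of 38 tested, ASXL1 and NRIP1 were higher in yak and CAMSAP1 and SLC8A1 lower (limma), beside 8.36% higher and 10.7% lower over all genes. The median log2 change was −0.00, beside −0.06 over all genes. SLC8A1, a sodium and calcium exchanger, was at 2.83 ± 1.31 FPKM in cattle and 0.562 ± 0.332 in yak. ASXL1, a Polycomb-associated protein, was at 7.55 ± 0.73 in cattle and 14.8 ± 1.69 in yak. SMARCA5, a chromatin remodeller and the most abundant of them, had a log2 change of 0.00 ± 0.10 and PICALM, a clathrin adaptor, −0.04 ± 0.09. Whether any of these genes hosts a private circRNA cannot be read from the table.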

How the data were processed

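Reads per circRNA were used as deposited (counts, per the file headers), for 9 libraries grouped by the species in their titles. The TPM columns deposited by the authors equal each read count over its library's table total, rescaled, with no length term. The mRNA values were FPKM deposited by the authors for 22118 transcripts and were summed to 19994 genes. Per the submitters' processing notes UMD3.1, a cattle build, is listed for every library. The notes name Bowtie, Cufflinks, StringTie (1.3.4), HISAT2 (2.0.5) and Trimmomatic, with no roles. For the circRNA caller, the sources used here give no name. As deposited, the table lists only circRNAs with 2 or more reads throughout some group. The 3 unnamed columns were not used, and small RNA libraries were not analysed here.

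Private sets were formed with pandas 2.3.3, and exact permutation tests were run with SciPy 1.17.1. Depth was 44469 to 65174 table reads. Back-splice reads carry no molecular identifiers, so intervals cover counting error only. Genes that reached an FPKM of 1 in 3 or more libraries were fitted as log2(FPKM + 1) with limma 3.58.1 in R 4.3.3 over all 9 libraries, with a moderated trend and Benjamini-Hochberg adjustment over the 14091 genes, and the fit was tested on simulated data. Read depth behind the FPKM is unknown. The planned tests on host genes, on the other circRNAs of a host (edgeR) and on shared back-splice sites could not be made, because the table gives no host or position. Named circRNAs come from the 12 with the highest lowest own count in each set, and named genes are the 3 most abundant of a list, called list members and the regulators introduced as background. Of 252 listed genes, 235 were in the table and 227 were tested. The members and lists were chosen with earlier results of these data known. The library titles give a group and a number only, and with 3 animals of each kind each library was taken as a separate animal. No sequencing batch or date is given. Whether the replicate numbers pair animals is not known, and the main fit used no pairing. Deviations from group means of same-numbered libraries correlated between −0.17 and 0.23, and of differently numbered ones between −0.35 and 0.23. With 3 libraries a group these values cannot decide on pairing.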

Additional observations from a re-analysis of the deposited data

How the results depend on the processing

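With at least 3 reads as the threshold, 652 cattle-private and 473 yak-private circRNAs were found, and with at least 5 reads 394 and 299, of which 191 and 118 were members at 2 reads. Scaling to the lowest table total gave 616 and 577. Requiring 0 in all 6 other libraries left 163 and 91. Leaving out 1 library gave 672 to 804 and 518 to 618. Dropping a library of the own group changed neither number, because the deposited table was filtered on all 3.

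For circRNAs called in cattle and not yak, or in yak and not cattle, the share with reads in a hybrid library (55.6 and 63.6%) was 42.2 and 45.2% with 0 in the other parent, 69.1 and 76.0% at 5 reads and 53.2 and 61.5% after scaling to the lowest total. Leaving out 1 library gave 52.8 to 56.4% and 60.1 to 64.7%. The held-out share was 17.6% in yak and 34.2% in cattle at 5 reads, and 31.1% in cattle after scaling. The hybrid minus held-out gap, on which the permutation test cannot decide, was 18.3 points for cattle-called circRNAs after scaling and 34.3 at 5 reads. It ranged from 14.2 to 24.3 points on leaving out 1 library, and from 9.56 to 21.4 for yak-called circRNAs.

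For mRNA, 2692 genes were called between the parents, 1649 to 2899 on leaving out 1 library, with the lowest number without cattle replicate 2. With the replicate number as a block 2432 genes were called, METTL14 was not called (limma, adjusted p = 0.0823) and KHSRP was (0.00804). Against the hybrid, median-ratio scaling turned HNRNPM to −0.44 and −0.59 and ILF2 to −0.45 against cattle, and quantile normalisation turned ILF2 to 0.31 against yak. The cause was not tested. Tests on host genes, and DESeq2, were not run, since the table names no host. Dropping circRNA libraries of the calling parent could not be run for the hybrid shares. Alternatives for hybrid and held-out shares were chosen after seeing the data. With 3 libraries a group, no exact test could reach 0.05, and at 2 reads a true absence cannot be told from low depth.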
